A study of Mus musculus with 15 samples.

Results

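Feedback inhibitors and transcriptional effectors of the canonical Wnt pathway were followed through the differentiation of mouse embryonic stem (ES) cells toward paraxial mesoderm. The genes were Axin2, Nkd1, Nkd2, Tnfrsf19, Sp5, Sp8, Lef1, Tcf7, Tcf7l1 and Tcf7l2, a set of 10 grouped by their place in the pathway. Of these, 9 had a probe set annotated to them alone, and 23 such probe sets were found in all, against 18193 genes with such a probe set on the array. Each gene was represented by the probe set with the highest mean over the 15 arrays. Tcf7 was not analysed here. All 9 passed the filter on dim probe sets that left 12400 genes for testing. For Nkd1, Nkd2 and Sp8 no ES array lay above its array's median, so these 3 genes passed through the sorted groups alone.

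In the absence of a Wnt ligand, a complex built on Axin proteins marks beta-catenin for destruction. Wnt binding stops this, and beta-catenin enters the nucleus, where it joins the DNA-binding proteins of the TCF and LEF family. Many of the genes switched on in this way lower the signal again, and Axin2, Nkd1 and Nkd2 belong to that group. In the embryo, Wnt signalling is high in the primitive streak, the tail bud and the posterior presomitic mesoderm, the tissue from which somites form, and it falls toward the somites.

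The samples formed 5 groups of 3 biological replicates. Undifferentiated E14 ES cells (strain 129P2) at day 0 had been kept on feeder fibroblasts in serum with LIF and the inhibitors CHIRON99021 and PD0325901, so their medium already held an inhibitor of GSK3, the kinase of the destruction complex. For differentiation, cells received BMP4 at 10 ng/ml for 2 days in serum-free medium. They then went into RDL medium, with the Wnt agonist Rspo3 at 10 ng/ml, 0.5% DMSO and the BMP receptor inhibitor LDN193189 at 0.1 µM, or into CDL medium, in which CHIRON99021 (CHIR) at 1 µM took the place of Rspo3. The protocol names LDN193189 throughout, although the labels of 3 groups end its number in other digits. Rspo3 keeps Wnt receptors on the cell surface, whereas CHIR acts inside the cell on GSK3. At day 4, E14 cells positive for the Msgn1-repV reporter were sorted. The day 6 samples came from a second line, CK35 of strain 129Sv, and were sorted for Pax3-GFP. Msgn1 marks the posterior presomitic mesoderm and Pax3 the anterior presomitic mesoderm and somites. Day 6 thus differed from the other groups in cell line, strain and reporter as well as in time, and these cannot be told apart. ES cells were not sorted. The labels name a single line for each reporter. They call the replicates biological without saying what was repeated, so p-values measure only the spread between these samples, part of which may be technical.

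Promoter sequences are shown for 4 of the genes because TCF and LEF proteins bind DNA at short motifs. These have the core CTTTG followed by 2 letters, each A or T. In RefSeq's table for mouse assembly GRCm38.p6, all 10 genes had a start site, with 18 windows of 250 bases before the start between them, some of which overlap. Each window was searched on both strands for 4 motifs. They were CTTTGAT and CTTTGAA, with A after the core. The others were CTTTGTT and CTTTGTA, with T there. No 2 of them can match at the same place on a strand, but matches on opposite strands may overlap. Capitals mark the matches in the following sequences, printed 5′ to 3′ in the direction of the gene. The Sp5 window lies at chr2:70474673-70474922 on the plus strand and the second Tnfrsf19 window at chr14:61037988-61038237 on the minus strand. The Axin2 window lies at chr11:108920099-108920348 and the Nkd1 window at chr8:88527383-88527632, both on the plus strand.
Sp5: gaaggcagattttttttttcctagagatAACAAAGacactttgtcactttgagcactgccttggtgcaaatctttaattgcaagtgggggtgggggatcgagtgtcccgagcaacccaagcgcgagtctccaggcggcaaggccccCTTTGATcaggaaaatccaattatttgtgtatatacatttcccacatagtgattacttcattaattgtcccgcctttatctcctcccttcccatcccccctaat
Tnfrsf19: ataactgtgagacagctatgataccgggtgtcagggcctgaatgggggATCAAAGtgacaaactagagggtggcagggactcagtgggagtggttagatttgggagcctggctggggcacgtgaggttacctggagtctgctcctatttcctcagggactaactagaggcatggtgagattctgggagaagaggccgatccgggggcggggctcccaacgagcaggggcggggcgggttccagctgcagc
Axin2: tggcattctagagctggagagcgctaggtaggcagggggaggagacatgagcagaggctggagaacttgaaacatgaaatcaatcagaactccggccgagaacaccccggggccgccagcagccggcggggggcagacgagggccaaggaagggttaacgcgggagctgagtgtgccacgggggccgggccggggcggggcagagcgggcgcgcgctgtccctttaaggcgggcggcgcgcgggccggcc
Nkd1: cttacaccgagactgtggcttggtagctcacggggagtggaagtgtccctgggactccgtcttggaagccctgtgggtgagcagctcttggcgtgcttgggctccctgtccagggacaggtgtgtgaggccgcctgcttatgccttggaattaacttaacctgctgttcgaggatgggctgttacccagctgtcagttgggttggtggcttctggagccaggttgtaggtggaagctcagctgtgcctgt

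The Sp5 window held 2 matches, CTTTGTT on the opposite strand starting 222 bases before the start and CTTTGAT on the gene's own strand starting 104 bases before it. Such a count was uncommon, since 1.43% of the 32851 windows in the table held 2 or more. Tnfrsf19 held CTTTGAT on the opposite strand, 202 bases before its second listed start. Single matches also stood in 1 window each of Sp8 (CTTTGAA), Lef1 (CTTTGTA) and Tcf7l2 (CTTTGTT). Axin2, Nkd1, Nkd2, Tcf7 and Tcf7l1 had no match in their windows. In all, 5 of the 18 windows (27.8%) held a match, against 14.8% of all windows. A match is a run of letters and not a measured binding site, and its absence says only that these letters are not in that window.

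Values below are deposited signal intensities on a linear scale, and differences are of log2(signal + 12.6), which understates changes of dim genes such as Nkd1 in ES cells. A gene passed the test where limma's adjusted p over the 12400 genes was under 0.05. Array medians lay between 29.4 and 31.2. Defining markers followed the labels: the summed signal of 9 pluripotency genes was 36613 to 37496 in ES cells, and that of 6 presomitic genes was 6635 to 8448 at day 4 against 175 to 192 in ES cells. The 6 measured somite genes summed to 3553 to 8052 at day 6, with Pax3 at 303 ± 57.7 in RDL and 522 ± 91.9 in CDL (SD, n = 3). Not all of them rose from RDL day 4 to RDL day 6: mean Tcf15 went from 395 to 378, and Foxc2 from 760 to 826 ± 328. Pax3, Meox1, Meox2 and Uncx were higher there, and in CDL all 6 were higher at day 6 than at day 4. Replicate 1 of CDL day 4 stood apart, with a pluripotency sum of 14780 against 3201 and 3409 in its group mates. In RDL day 6, replicate 1 had the lowest correlation with its group (mean r = 0.989) and the highest 3' to 5' signal ratio for actin, 1.90 against 1.43 to 1.85 elsewhere. Among markers of other cells, the 7 fibroblast genes summed to 179 to 1034 up to day 4. At day 6 they summed to 5192 to 10086, with collagens leading (Col3a1 at 6794 ± 620 in RDL). From RDL day 4 to RDL day 6, mean Lum went from 11.5 to 224, Dcn from 25.3 to 110 and Postn from 18.7 to 44.7. Thy1 went down, from 74.2 to 16.6 ± 5.51. The 6 endoderm genes reached at most 589, and the 5 endothelial genes 241.

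At day 4 the pathway's feedback genes and 3 of its transcription factors stood above their ES cell level in both media, Axin2 by the least. In RDL, 7 of the 9 genes rose and 1 fell, with a median difference of 2.75, where 27.6% of all tested genes rose, 29.5% fell and the median over all genes was -0.01. In CDL, 7 rose and none fell, with a median of 2.64, against 26.6% and 29.6% of all genes and a median of -0.02. Both comparisons use the same 3 ES arrays. Nkd1, Nkd2 and Sp8 are among the genes that rose in both media. They passed the filter through the sorted groups alone, so the filter itself favoured a rise from ES cells for them. This limits the counts and medians against ES cells here and at day 6. In bulk samples such as these, more cells with a transcript and more transcript per cell cannot be told apart. Leaving out replicate 1 of CDL day 4, the array with the high pluripotency sum, left 7 genes past the test in CDL.

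Axin2, the inducible scaffold of the destruction complex, changed least among the feedback genes. ES cells gave 217, 223 and 232, RDL day 4 gave 389.6, 568 and 336, and CDL day 4 gave 397, 769 and 534. Every day 4 array lay above every ES array, and the day 4 arrays spread widely, replicate 2 being the highest in each medium. The difference from ES cells was 0.88 (SE 0.23, adjusted p = 0.00335) in RDL and 1.24 (adjusted p = 0.000197) in CDL. Nkd1, which binds Dishevelled and dampens Wnt signalling, went from near the floor of the array to a clear signal, so the size of its difference from ES cells rests on the added constant. It was at 9.53, 11.2 and 8.64 in ES cells, 285, 359 and 289 in RDL, and 249, 378 and 390.1 in CDL. No day 4 array came near the ES arrays, and the differences were 3.85 (adjusted p = 1.27e-09) and 3.95 (adjusted p = 1.09e-09), with an SE of 0.23. Its relative Nkd2 showed 19.6, 17.9 and 18.7 in ES cells, 174, 225 and 200.1 in RDL, and 119, 181 and 190.0 in CDL. These groups were again apart, by 2.75 in RDL (adjusted p = 6.98e-09) and 2.46 in CDL (adjusted p = 3.11e-08), with an SE of 0.19.

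Tnfrsf19, a receptor of the tumour necrosis factor family (also called Troy) that is reported both as a Wnt target and as a modulator of the pathway, had the smallest standard error of the 9 genes in the fit over all 15 arrays. ES cells were at 236, 231 and 234, RDL at 1606, 1636 and 1818, and CDL at 1401, 1636 and 1547. The groups did not overlap, and the differences of 2.78 in RDL (SE 0.12, adjusted p = 1.77e-11) and 2.64 in CDL (adjusted p = 3.50e-11) corresponded to 6.89-fold and 6.24-fold on the scale with the constant.

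Sp5 and Sp8 encode zinc finger transcription factors of the Sp family that act downstream of Wnt signals in the primitive streak and tail bud. Sp5 was present in ES cells at 146, 137 and 164, and at day 4 it measured 777, 1232 and 744 in RDL and 951, 1372 and 953 in CDL. Sp8 started at 16.0, 17.3 and 14.6, close to the added constant, and measured 160.4, 261 and 188 in RDL and 207, 274 and 203 in CDL. For both genes all 6 day 4 arrays lay above all ES arrays. Sp5 rose by 2.49 in RDL (SE 0.19, adjusted p = 1.97e-08) and by 2.75 in CDL (adjusted p = 8.31e-09). Sp8 rose by 2.89 (SE 0.17, adjusted p = 6.87e-10) and 3.06 (adjusted p = 4.06e-10).

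**Figure D1:**
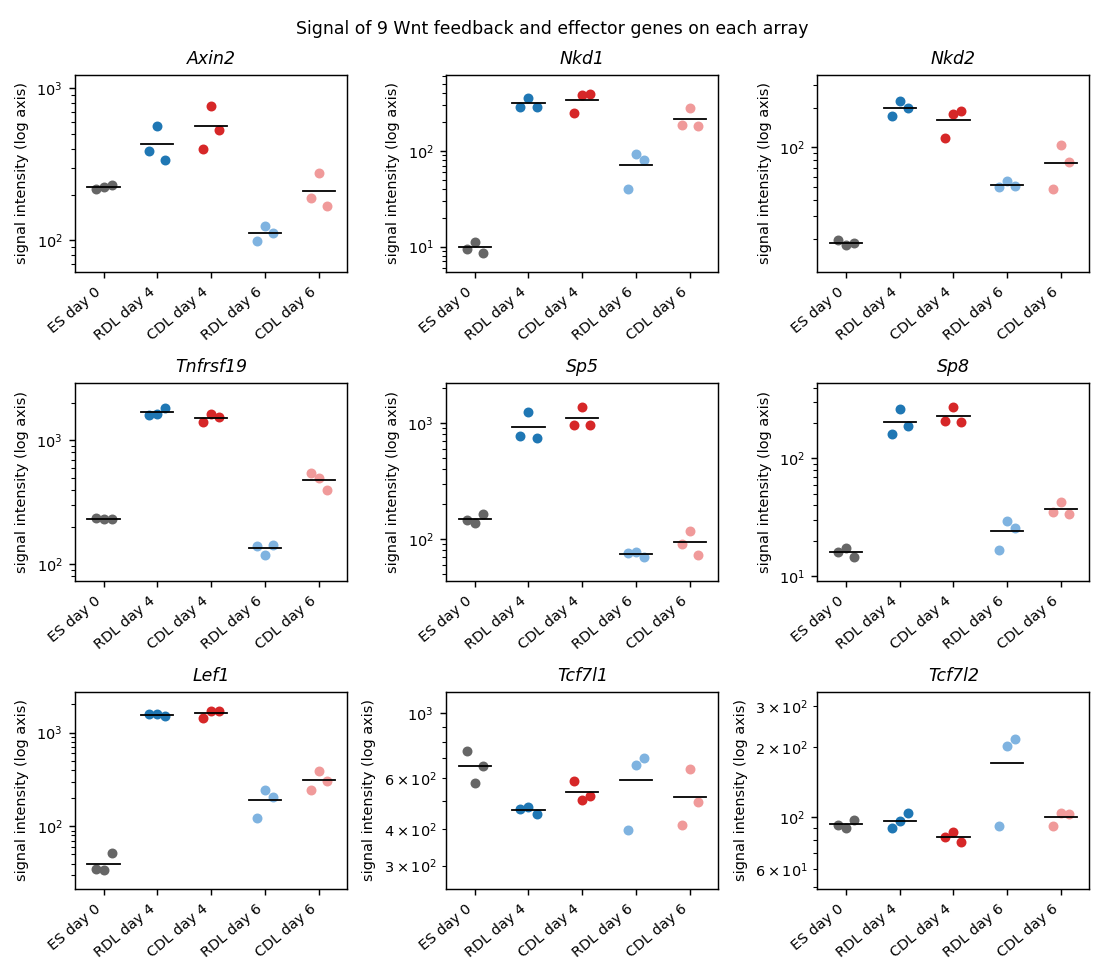
Signal intensity (log axis) of the 9 measured Wnt feedback and effector genes on each of the 15 arrays, with points for arrays and bars for group means (n = 3). In 7 genes both day 4 groups lie above the ES cells, whereas Tcf7l1 stays between 398 and 742 and Tcf7l2 stands out on 2 RDL day 6 arrays, at 203 and 216.

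The TCF and LEF factors, which carry beta-catenin's effect to DNA, did not move together. Lef1, mostly an activator when bound by beta-catenin, rose strongly from a low level. Its ES arrays read 34.8, 34.0 and 51.3, its RDL day 4 arrays 1568, 1584 and 1514, and its CDL day 4 arrays 1417, 1704 and 1711. That is a gap of 4.91 in RDL (30.1-fold, SE 0.21, adjusted p = 1.93e-11) and 4.96 in CDL (31.1-fold, adjusted p = 1.81e-11), with no overlap. Tcf7l1, best known in ES cells as a repressor of pluripotency genes, was already high in ES cells at 742, 578 and 661. It read 468, 477 and 450.5 in RDL and 584, 503 and 522 in CDL. The RDL arrays all lay below the ES arrays, by 0.49 (SE 0.19, adjusted p = 0.0358), while in CDL 1 array overlapped them and the difference of -0.29 did not pass (adjusted p = 0.207). The fall in RDL was lost when ES replicate 1 or 3 or any single RDL day 4 array was left out, with adjusted p between 0.0662 and 0.132. Tcf7l2, the factor through which Wnt targets are controlled in many adult tissues, read 92.2, 90.2 and 97.6 in ES cells, 89.8, 95.8 and 104 in RDL, and 82.1, 86.6 and 78.3 in CDL. Its differences of 0.04 (adjusted p = 0.882) and -0.16 (adjusted p = 0.546) lay within the spread, although the 3 CDL arrays were all below the 3 ES arrays.

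By day 6 most of these genes were lower again. Against day 4 in RDL, 7 of the 9 genes fell and 1 rose, with a median difference of -2.00, where 17.2% of all tested genes fell, 13.8% rose and the median over all genes was -0.02. In CDL, 7 fell and none rose, with a median of -1.35, against 22.0% and 17.4% of all genes and again a median of -0.02. Since the day 4 arrays enter these differences and those against ES cells alike, a high day 4 level shows in both. For Sp8 no RDL day 6 array lay above its array's median, so the filter itself favoured its fall in RDL. This limits the RDL count and median here, and likewise the values of Sp8 between media at day 6. The fibroblast marker sum was higher on all day 6 arrays than on any day 4 array, and its part in these differences was not tested.

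In RDL, Tnfrsf19 and Sp5 fell furthest, while in CDL Tnfrsf19 fell by less than Sp5, Lef1 or Sp8. Tnfrsf19 read 141, 118 and 144 in RDL at day 6, below even the ES arrays, and 550.4, 494 and 401 in CDL. The 3 RDL values therefore sat beneath every other group, and the 3 CDL values between the ES cells and day 4. From day 4 to day 6 it fell by 3.53 in RDL (11.6-fold, SE 0.12, adjusted p = 2.58e-12) and by 1.65 in CDL (adjusted p = 1.88e-08). Sp5 read 75.7, 77.5 and 69.9 in RDL and 90.7, 117 and 73.1 in CDL, so that all 6 arrays lay below the ES arrays. Its fall from day 4 was of the same size in both media, 3.38 in RDL (adjusted p = 1.76e-09) and 3.38 in CDL (adjusted p = 1.55e-09), with an SE of 0.19.

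Sp8 and Lef1 also fell but differed in where they ended. Sp8 came back close to its ES level in RDL, at 16.7, 29.4 and 25.8, and stood at 35.3, 42.3 and 33.4 in CDL. Only replicate 1 of RDL reached down into the ES range. The falls were 2.55 (SE 0.17, adjusted p = 8.07e-09) and 2.27 (adjusted p = 2.95e-08). Lef1 remained above ES cells on every day 6 array, with 122, 241 and 207 in RDL and 245, 389.8 and 303.5 in CDL. From its day 4 peak it fell by 3.0 in RDL (SE 0.21, adjusted p = 1.59e-08) and by 2.34 in CDL (adjusted p = 2.73e-07).

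The 3 feedback inhibitors that act inside the cell ended day 6 at different levels relative to ES cells. Axin2 read 98.9, 124 and 112 in RDL, below every ES array, and 191, 278 and 168 in CDL, across the ES range. It fell from day 4 by 1.81 in RDL (adjusted p = 1.40e-05) and by 1.35 in CDL (adjusted p = 0.000207), with an SE of 0.23. Nkd1 read 40.2, 93.1 and 81.0 in RDL and 187, 279.9 and 180.3 in CDL. All of these were above every ES array, and the RDL arrays were far below day 4 while the highest CDL array exceeded the lowest CDL day 4 array. Nkd1 fell by 2.00 in RDL (adjusted p = 7.10e-06) and by 0.62 in CDL (adjusted p = 0.0450). The CDL call was lost when any ES or RDL day 4 array, CDL day 4 replicate 2 or 3, or CDL day 6 replicate 1 or 3 was left out, with adjusted p up to 0.158. Nkd2 read 49.5, 55.1 and 51.1 in RDL and 48.3, 104 and 77.3 in CDL, all between the ES and day 4 arrays. Its falls were 1.71 (SE 0.19, adjusted p = 5.42e-06) and 1.00 (adjusted p = 0.000763).

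**Figure D2:**
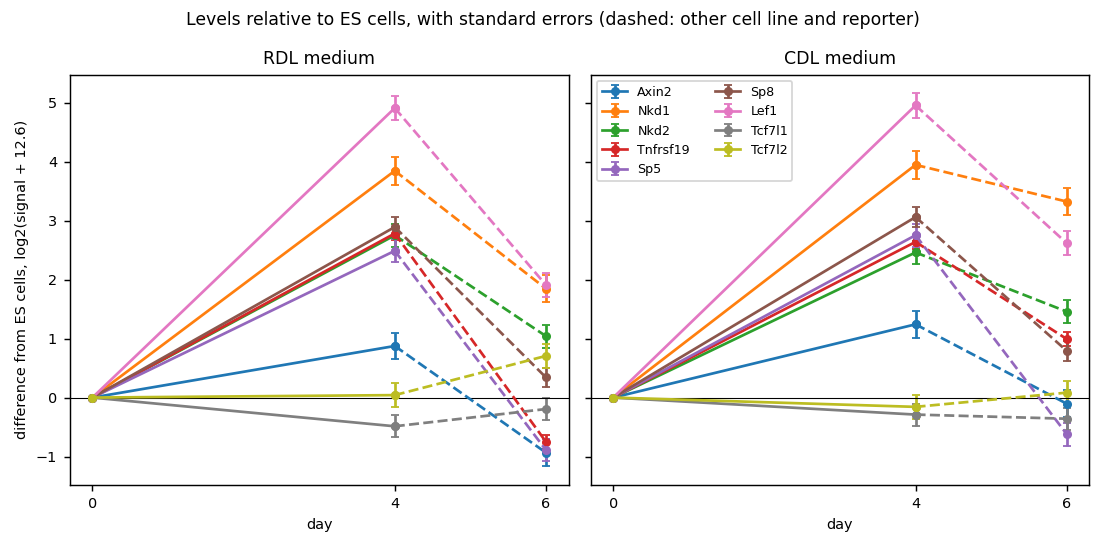
Group differences from ES cells in log2(signal + 12.6) with standard errors, by day, in RDL (left) and CDL (right); dashed segments join groups of different cell line and reporter. Lef1 peaks at 4.91 and 4.96 at day 4, and at day 6 Axin2, Sp5 and Tnfrsf19 lie below ES cells in RDL, of which Sp5 alone passed the test as lower in CDL.

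Tcf7l1 and Tcf7l2 did not fall with the rest. Tcf7l1 at day 6 read 398, 666 and 705 in RDL and 414, 645 and 495 in CDL, a range that covered both day 4 groups. Its differences from day 4 were 0.29 in RDL (SE 0.19, adjusted p = 0.262) and -0.07 in CDL (adjusted p = 0.795). Tcf7l2 read 91.9, 203 and 216 in RDL and 91.7, 104 and 103 in CDL, so that 2 RDL arrays stood apart from the third. The difference from day 4 passed in RDL at 0.67 (SE 0.21, adjusted p = 0.0219), though the groups overlapped, and not in CDL at 0.24 (adjusted p = 0.372). Leaving out RDL day 6 replicate 1, the low array, gave 1.03 for Tcf7l2 (adjusted p = 8.92e-07) and 0.55 for Tcf7l1 (adjusted p = 0.0107) in RDL, and made the Tcf7l2 difference in CDL pass (adjusted p = 0.0341). Leaving out RDL day 4 replicate 1 or 2, or RDL day 6 replicate 2 or 3, took the Tcf7l2 call in RDL away, with adjusted p between 0.0598 and 0.106.

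Set against ES cells instead, day 6 RDL cells had 4 of the 9 genes higher and 3 lower (median 0.34), where 28.3% of all genes were higher, 33.3% lower and their median was -0.04. Those higher were Lef1 at 1.91 (adjusted p = 7.29e-07), Nkd1 at 1.85, Nkd2 at 1.04 and Tcf7l2 at 0.71 (adjusted p = 0.00719). Axin2 at -0.93 (adjusted p = 0.00189), Sp5 at -0.89 (adjusted p = 0.000818) and Tnfrsf19 at -0.75 (adjusted p = 3.65e-05) were lower. Tcf7l2 overlapped the ES arrays through RDL replicate 1, and stood at 1.07 without it. Sp8, at 0.34, did not pass (adjusted p = 0.0879), but it did without RDL day 6 replicate 1 (0.49, adjusted p = 0.0178) or without RDL day 4 replicate 2 (adjusted p = 0.0497).

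Day 6 CDL cells had 5 genes higher than ES cells and 1 lower (median 0.79), where 27.8% of all genes were higher, 33.3% lower and their median was -0.02. They were Nkd1 at 3.33 (adjusted p = 5.00e-09), where ES cells lay below every array's median, Lef1 at 2.62 (adjusted p = 1.95e-08), Nkd2 at 1.46, Tnfrsf19 at 0.99 (adjusted p = 1.79e-06) and Sp8 at 0.79 (adjusted p = 0.000614). Sp5 was lower by 0.62 (adjusted p = 0.0110), a call lost without CDL day 6 replicate 3 (adjusted p = 0.0635). Axin2 at -0.10 (adjusted p = 0.710) and Tcf7l2 at 0.08 (adjusted p = 0.746) did not pass. Tcf7l1, at -0.36, did not pass either (adjusted p = 0.109). It passed without RDL day 6 replicate 1 (adjusted p = 0.0253), without CDL day 6 replicate 2 (-0.52, adjusted p = 0.0268) and when its probe sets were averaged (-0.51, adjusted p = 0.0409), among other settings that share these arrays or probe sets.

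The replacement of Rspo3 by CHIR made no detectable difference to these genes at day 4. None of the 9 passed the test, where 2.90% of all genes were higher in CDL and 1.52% lower (547 by limma, and 1843 at an unadjusted p under 0.05), and their median difference was 0.10 against 0.00 over all genes. Axin2 had the largest difference, 0.37, with a 95% interval from -0.11 to 0.85 (adjusted p = 0.502). For Nkd1 the difference was 0.10 (interval -0.40 to 0.60), for Lef1 0.05 (-0.40 to 0.49) and for Tnfrsf19 -0.14 (-0.39 to 0.11). Sp5 at 0.26 (-0.15 to 0.68), Sp8 at 0.17 (-0.18 to 0.52) and Nkd2 at -0.29 (-0.71 to 0.12) were as uncertain. The Tcf7l1 arrays were all higher and the Tcf7l2 arrays all lower in CDL than in RDL, with differences of 0.20 (adjusted p = 0.718) and -0.20 (adjusted p = 0.749). These intervals leave room for differences of up to 0.85, so equal action of the media is not shown. The somite genes moved with the medium at day 4, with sums of 1815 to 1928 in RDL, 463 to 721 in CDL and 252 to 291 in ES cells, and their part in the day 4 and interaction values was not tested.

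At day 6 the media did differ. In CDL, 4 of the 9 genes were higher than in RDL and none lower, with a median difference of 0.45, where 3.68% of all genes were higher, 3.94% lower and the median over all genes was 0.00. Tnfrsf19 and Nkd1 stood out and did so whichever array was left out. Tnfrsf19 was at 401 to 550.4 in CDL against 118 to 144 in RDL, a difference of 1.74 (3.35-fold, SE 0.12, adjusted p = 1.37e-07). Nkd1 was at 180.3 to 279.9 against 40.2 to 93.1, a difference of 1.48 (2.79-fold, SE 0.23, adjusted p = 0.000648). In neither gene did the arrays of one medium overlap those of the other.

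Axin2 and Lef1 were also higher in CDL at day 6, but less firmly. Axin2 was at 168 to 278 against 98.9 to 124, and Lef1 at 245 to 389.8 against 122 to 241. The arrays did not overlap in either gene, though the highest RDL and lowest CDL arrays of Lef1 all but met. The difference was 0.83 for Axin2 (SE 0.23, adjusted p = 0.0332) and 0.71 for Lef1 (SE 0.21, adjusted p = 0.0488). The Axin2 call was lost without any one RDL day 6 array or without CDL day 6 replicate 1 or 2, with adjusted p up to 0.121. The Lef1 call was lost in 11 of the 15 fits with 1 array left out. It held only without ES replicate 3, CDL day 4 replicate 1, RDL day 6 replicate 2 or CDL day 6 replicate 1. Without RDL day 6 replicate 1 the Lef1 difference was 0.44 (adjusted p = 0.111), and without CDL day 6 replicate 2 it was 0.55 (adjusted p = 0.159). With RDL day 6 replicate 3 or CDL day 6 replicate 2 left out, 2 of the 9 genes passed in place of 4.

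The other 5 genes did not pass between the media at day 6. Sp8, at 0.45 (interval 0.10 to 0.81, adjusted p = 0.129), had all CDL arrays above all RDL arrays. Nkd2 stood at 0.42 (adjusted p = 0.257) with CDL replicate 1 as low as the RDL arrays, and passed without that array (0.67, adjusted p = 0.0331). Sp5 at 0.27 (interval -0.14 to 0.68) and Tcf7l1 at -0.16 (-0.56 to 0.23) did not. Tcf7l2 went the other way, at -0.62 (interval -1.06 to -0.19, adjusted p = 0.0844), and without RDL day 6 replicate 1 the difference was -0.99 (adjusted p = 8.09e-06). Other features moved with the medium at day 6. The 6 presomitic genes summed to 674 to 903 in CDL and 277 to 353 in RDL, the 6 somite genes to 5099 to 8052 and 3553 to 5034, and the fibroblast genes to 5192 to 7064 and 7738 to 10086. The endoderm genes summed to 300 to 337 in CDL and 466 to 589 in RDL, the endothelial genes to 104 to 139 and 205 to 213, and the pluripotency genes to 1151 to 1905 and 733 to 906. The part of such marker genes in the Wnt gene differences was not tested.

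**Figure D3:**
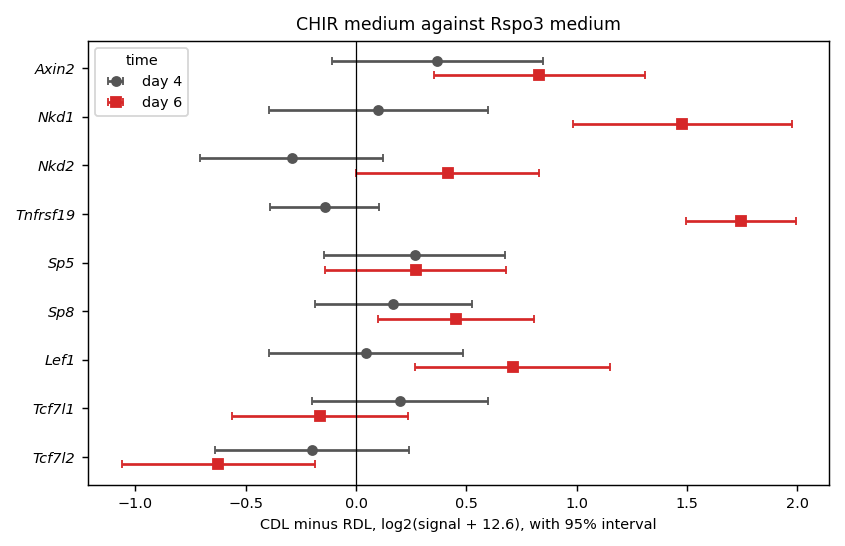
CDL minus RDL in log2(signal + 12.6), with 95% intervals from the fit over 15 arrays, at day 4 (circles) and day 6 (squares) for the 9 genes. All day 4 intervals cover 0, while at day 6 Tnfrsf19 at 1.74 and Nkd1 at 1.48 lie farthest to the right.

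The change in the effect of medium between the days was tested directly, as the difference at day 6 minus that at day 4. It passed for 2 genes, both upward, where 2.31% of all tested genes passed upward and 3.08% downward, with a median of 0.46 over the 9 genes and -0.01 over all. Tnfrsf19 gave 1.89 (SE 0.16, adjusted p = 5.79e-06) and Nkd1 1.38 (SE 0.33, adjusted p = 0.0208). The Nkd1 call was lost without RDL day 4 replicate 2 (1.27, adjusted p = 0.0641), which left 1 gene. For Axin2 (0.46, interval -0.22 to 1.14, adjusted p = 0.546) and Lef1 (0.67, interval 0.04 to 1.29, adjusted p = 0.270) the effect of medium was not shown to differ between the days. Nkd2 gave 0.71 (adjusted p = 0.192), and 0.96 (adjusted p = 0.0280) without CDL day 6 replicate 1. Tcf7l2 gave -0.42 (adjusted p = 0.544), and -0.79 (adjusted p = 0.00139) without RDL day 6 replicate 1. Sp5 was at 0.01 (interval -0.58 to 0.59).

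The order of the groups by level differed between genes. In Axin2 and Sp5, both day 4 groups led, ES cells came next and the day 6 groups were lowest. For Axin2, the step between CDL and RDL at day 4 did not pass, nor did that between ES cells and CDL at day 6. For Sp5, neither the step between the media at day 4 nor that at day 6 passed. In Nkd1, Nkd2, Sp8 and Lef1, ES cells were lowest and the day 6 groups lay between them and day 4. In none of these 4 genes did the step between the media at day 4 pass. The step from RDL day 4 to CDL day 6 did not pass for Nkd1 (0.52, adjusted p = 0.104), although these arrays did not overlap. For Nkd2 and Sp8 the step between the media at day 6 did not pass, nor for Sp8 that from RDL day 6 to ES cells, where arrays overlapped. Tnfrsf19 kept ES cells between CDL and RDL at day 6, with 3 of its 4 steps past the test. In Tcf7l1 and Tcf7l2 no step between neighbours passed the test, although for Tcf7l2 the 3 ES arrays lay above the 3 CDL day 4 arrays, and the interval of the step from RDL to CDL at day 6 did not cover 0.

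Further probe sets gave a check on 7 of the genes, 14 in all, since Sp5 and Sp8 had only 1. Of 78 calls compared, 46 were the same, 32 were not made by the other probe set and 0 were opposite. The second Nkd1 probe set made the same call in all 9 comparisons, with 1.01 between media at day 6 (adjusted p = 0.000292) and 0.90 for the interaction (adjusted p = 0.0164). The other 2 Nkd1 probe sets, with means of 53.2 and 32.0, passed neither between media at day 6 (0.19 each, adjusted p = 0.547 and 0.335) nor for the interaction (adjusted p = 0.948 and 0.807). For Tnfrsf19, the second probe set also placed CDL above RDL at day 6 (0.90, adjusted p = 0.000488) with an interaction of 0.83 (adjusted p = 0.0188), but not CDL day 6 above ES cells (-0.05, adjusted p = 0.757). The third Tnfrsf19 probe set, with a mean of 27.7, passed neither between media at day 6 (0.20, adjusted p = 0.347) nor for the interaction (0.23, adjusted p = 0.526). Of 18 Nkd2 calls compared, 12 were the same. The other 6 were not made by 1 probe set with a mean of 42.05, above the array medians. The second Lef1 probe set gave 0.38 between media at day 6 (adjusted p = 0.0504). The only other Axin2 probe set had a mean of 11.3, at the level of background, and made none of the 6 calls. For Tcf7l1, the second probe set placed RDL day 4 (-0.74, adjusted p = 0.0107) and CDL day 6 (-0.67, adjusted p = 0.0188) below ES cells. One further Tcf7l2 probe set placed CDL below RDL at day 6 (-0.59, adjusted p = 0.0482).

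Replicates varied together across the genes. In RDL and CDL at day 6, replicate 2 was the highest of its group for 6 and 8 of the 9 genes, and at day 4 for 7 and 5. RDL day 6 replicate 1 was the lowest of its group for 7 of the 9. The 9 genes are therefore not independent readings of a sample. As a description over the 15 arrays, the genes whose centred log2 values lay closest to each member were found among the tested genes, by root mean square difference. Closest to Sp5 were Rftn1 (0.192) and Gbx2 (0.207), to Tcf7l1 Arhgef1 (0.0983) and Snx18 (0.128), and to Tcf7l2 Tnrc18 (0.175) and Rnf145 (0.183). Axin2 lay nearest to Cdk6 (0.262) and Plp2 (0.301), Nkd1 to Kif26b (0.305) and Prtg (0.327), and Nkd2 to Mfhas1 (0.238) and Arhgef5 (0.268). Sp8 had Fgf13 (0.251) and Synm (0.293) as neighbours. For Lef1 and Tnfrsf19 the closest genes lay at larger distances, Chst7 at 0.454 and Synm at 0.495. Second to Tnfrsf19 was Sp8, itself one of the 9 (0.5). This distance depends on how widely a gene varies, so it does not rank likeness between members. Lef1 correlated with Chst7 at 0.972 and Tnfrsf19 with Synm at 0.936, against 0.947 for Axin2 with Cdk6 and 0.938 for Tcf7l1 with Arhgef1.

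The rest of the pathway was followed by role. Of 10 genes for beta-catenin and its destruction complex, 4 rose and 1 fell from ES cells to RDL day 4, where 27.6% of all genes rose and 29.5% fell. Gsk3b, the kinase itself, rose by 0.92, Btrc, a ubiquitin ligase subunit, by 0.67, and Amer1 by 0.59, and Apc, a scaffold, fell by 0.45. In neither comparison of media did any of the 10 pass. Few genes did in all: 2.90% were higher in CDL and 1.52% lower at day 4, and 3.68% and 3.94% at day 6. From day 4 to day 6, 1 fell in RDL (Axin1, the constitutive relative of Axin2, by 0.65) and 1 in CDL (Apc, by 0.48). Of all genes, 17.2% fell in RDL and 22.0% in CDL. Among 4 co-receptors and Dishevelled genes, Lrp5 fell by 0.20 in RDL at day 4 against ES cells, and none passed in the comparisons of media or of days within a medium.

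Of 12 tested nuclear partners of TCF factors, 4 rose and 2 fell from ES cells to RDL day 4, against the same 27.6% and 29.5% of all genes. Tle5, a short relative of the Groucho co-repressors, fell by 3.02, and the co-repressor Ctbp1 rose by 1.72 and the beta-catenin partner Bcl9 by 1.17. Tle1, a Groucho co-repressor, rose from day 4 to day 6 by 0.80 in RDL (adjusted p = 0.00126) and 1.61 in CDL (adjusted p = 1.02e-06) and was higher in CDL at day 6 by 0.78 (adjusted p = 0.00550). Hbp1 was lower there by 0.39, and no other partner passed between media. Of 5 other tested genes of the Sp family, Sp4 rose by 1.13 and Sp3 and Sp1 fell by 0.47 and 0.45 from ES cells to RDL day 4, and none passed between media.

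Other reported Wnt targets followed the feedback genes, with exceptions. Of 13 tested, 9 rose and 1 fell from ES cells to RDL day 4, with a median of 1.80 (27.6% and 29.5% of all genes). Dll1, a Notch ligand, rose by 6.08, Fgf8 by 4.76, Msgn1 by 2.30 and Cdx2 by 2.04. Msgn1 drives the reporter used for the sort, and Msgn1 and Dll1 are also on the presomitic marker list. Dll1 and Msgn1 averaged under the array medians in ES cells (22.5 and 29.1), so the filter itself favoured their rise. Msgn1 did so in RDL day 6 as well (28.7), which favoured its fall there. This limits the counts and median of this list. From day 4 to day 6, 10 fell and 1 rose in RDL, where 17.2% of all genes fell and 13.8% rose, and 12 fell in CDL, where 22.0% fell and 17.4% rose. Dll1 fell by 4.77 in RDL and 2.54 in CDL, Fgf8 by 4.21 and 4.57, and Cdx1 by 3.60 and 3.57. The target that rose in RDL was Dkk1, a secreted Wnt antagonist, by 0.90 (adjusted p = 0.00991), while it fell by 1.64 in CDL. At day 6, Dkk1 was lower in CDL than in RDL by 1.84 (adjusted p = 0.000125) and Dll1 was higher by 2.14 (adjusted p = 4.32e-05). No other of the 13 passed there, where 3.68% of all genes were higher and 3.94% lower. The interaction passed for 4, with Dkk1 at -2.54 and Dll1 at 2.23 opposite in sign. Of all genes, 2.31% passed it upward and 3.08% downward. At day 4 between media, Cdx4 (0.79), Msgn1 (0.77) and Ccnd1 (0.49) were higher in CDL and Mesp1 lower by 1.01. Of all genes, 2.90% were higher and 1.52% lower in that comparison.

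**Figure D4:**
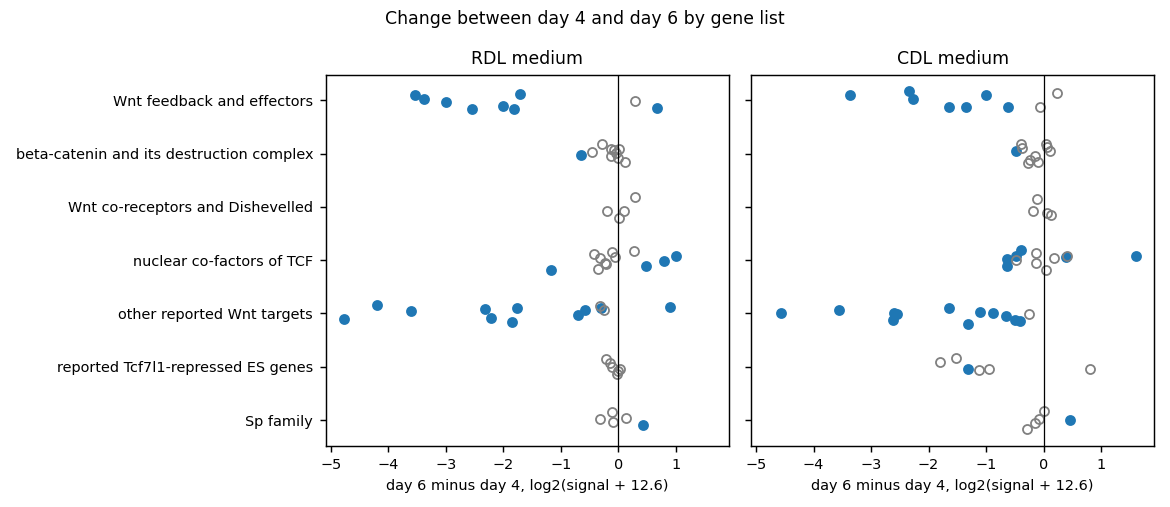
Day 6 minus day 4 in log2(signal + 12.6) for each tested gene of 7 lists, in RDL (left) and CDL (right), with filled points past the test and open points not. The Wnt feedback and effector genes and the other reported targets reach down to -3.53 and -4.77 in RDL, while those of the destruction complex lie close to 0.

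Tcf7l1 is reported to repress a group of pluripotency genes, and 6 of these were followed beside it. All 6 fell from ES cells in each of the 4 sorted groups, where 29.5% to 33.3% of all tested genes fell. In RDL day 4 the fall was 7.0 for Nanog and 5.69 for Esrrb. Esrrb and Tfcp2l1 averaged under the array medians in RDL day 4 (8.95 and 15.6) and in both day 6 groups. The filter itself therefore favoured their fall from ES cells, which limits the count of 6. Nanog, Esrrb and Tfcp2l1 are also on the pluripotency marker list that was used to check the labels. Tcf7l1 itself passed as lower in RDL day 4 alone. Between the media none of the 6 passed at either day. In CDL at day 4 their median stood 1.14 above RDL, in the group whose replicate 1 carried the high pluripotency sum.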

How the data were processed

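RNA of 15 samples was labelled in 2 cycles and hybridised to Affymetrix mouse arrays, per the labels' protocols. The deposited values are signal intensities on a linear scale that the authors made with MAS5, per the submitters' processing notes, with no missing values. The MAS5 version and the genome build are not given in the sources used here. Of 45101 probe sets, 64 were controls, and 34945 of the others had 1 gene symbol, 932 several and 9160 none in the platform annotation. Entrez identifiers matched 34741 and changed 0 symbols.

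A constant of 12.6, the median over arrays of the 25th percentile, was added before log2. A gene was tested where its brightest probe set exceeded the array's 50th percentile on at least 3 arrays; 5793 genes were left out as dim. A linear model of the 5 group means was fitted in R 4.3.3 with limma 3.58.1 (15 arrays, eBayes with intensity trend, Benjamini-Hochberg over 12400 genes, threshold 0.05), and the fit was tested on simulated data. Fold changes are on the scale with the constant. The number of arrays limits the precision.

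The genes and lists were chosen with earlier results of these data known. Named from a list were at most 4 genes with the largest differences past the threshold in a comparison. T, Sp2 and Sp9 had no probe set of their own in the annotation used here, and Dvl3, Pygo1, Tle2, Rnf43 and Lgr5 were dim. By a rule on the lowest correlation between deviations of same-numbered arrays, only RDL day 4 and RDL day 6 were taken as paired. Those arrays correlated at 0.219 to 0.285, each best with its own number. Each array also did so between media at day 4 (0.096 to 0.244) and between CDL day 6 and CDL day 4 (0.072 to 0.139). Between media at day 6 the range was -0.241 to 0.609, so a weaker link by number may exist there and elsewhere. The source of this pairing is the data, not the labels. Alternatives changed the constant, the filter, the normalization, the probe set, the spread model and the arrays. Promoters came from RefSeq's GRCm38.p6 table. Python 3.11.15 and matplotlib 3.10.9 made the plots.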

Additional observations from a re-analysis of the deposited data

Results flagged for a closer look

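The effect of CHIR in place of Rspo3 differed between day 4 and day 6, by the interaction term of the fit, for 2 of the 9 genes. Of all tested genes, 2.31% passed this test upward and 3.08% downward. For Tnfrsf19 the difference between media was higher at day 6 by 1.89, with arrays that overlapped at day 4 (1606 to 1818 in RDL and 1401 to 1636 in CDL) and not at day 6 (118 to 144 and 401 to 550.4). For Nkd1 it was higher at day 6 by 1.38, with 285 to 359 and 249 to 390.1 at day 4 and 40.2 to 93.1 and 180.3 to 279.9 at day 6. Cell line and reporter changed between the days as well and cannot be told apart from time.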

How the results depend on the processing

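Over 81 gene and comparison pairs and 25 settings, 1935 of 2025 values kept their direction and side of the threshold, 50 lost and 23 gained significance, and 17 changed sign, all of those without passing the test. Fitting only the groups compared gave 442 genes and 2 members between media at day 6 in place of 944 and 4, and 1 member in place of 2 for the interaction. With the 2 arrays that stood apart (CDL day 4 replicate 1, RDL day 6 replicate 1) both left out, 1776 genes passed between media at day 6 and 1237 for the interaction. Leaving out 1 array at a time gave 341 to 797 genes between media at day 4 (lowest without RDL day 4 replicate 2, and 353 without replicate 1), 684 to 1512 at day 6 and 482 to 1216 for the interaction (both highest without RDL day 6 replicate 1), with 2 to 4 and 1 to 3 members at day 6 and for the interaction.

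The values that took the opposite sign were all small, but for Nkd2 and Tnfrsf19 other probe sets reversed differences that had passed the test. The Sp5 interaction was -0.057 with a constant of 50, -0.0099 after quantile normalization, -0.071 without both those arrays, and -0.22 to 0.18 with 1 array left out. Tcf7l2 in RDL day 4 against ES cells was -0.026 after quantile normalization, -0.012 with another probe set and -0.0069 to 0.087 with 1 array left out. In CDL day 4 against ES cells it was 0.070 for the mean of its probe sets, and 0.17, 0.090 and 0.18 for its other probe sets, 1 of which gave 0.10 between media at day 4. With 1 array left out, Tcf7l1 ranged from -0.34 to 0.060 in RDL day 6 against ES cells (0.060 also without both arrays that stood apart) and from -0.24 to 0.076 between CDL days. Between media at day 4, Nkd1 ranged from -0.0097 to 0.30 and Lef1 from -0.00084 to 0.13. Axin2 in CDL day 6 against ES cells ranged from -0.30 to 0.039, and was 0.066 with its other probe set. Another Nkd2 probe set, with a mean of 42.05, gave -0.082 in RDL and -0.086 in CDL at day 6 against ES cells. The main probe set had passed there at 1.04 and 1.46. Between the media at day 6 the other Nkd2 probe set gave -0.0035. The second Tnfrsf19 probe set gave -0.054 in CDL day 6 against ES cells, where the main one had passed at 0.99. Between media at day 4 it gave 0.074. The cause of these changes was not tested.

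With the replicate block, the paired comparison of RDL day 6 with day 4 gave 4210 genes in place of 3838, with 8 members in both fits, and changed no member's call. In the comparisons not taken as paired, the block gave 634 genes between media at day 4 and 1143 at day 6, with 0 and 6 members. The 2 gained members were Sp8 (adjusted p = 0.0242) and Tcf7l2 (adjusted p = 0.0493), and Sp8 also passed in RDL day 6 against ES cells (adjusted p = 0.0184). Axin2 between media at day 6 was lost with a constant of 50 (adjusted p = 0.0545), and Lef1 with a constant of 1 (adjusted p = 0.0574). Signal over background limits Nkd1, Nkd2 and Sp8 in ES cells, where the size of a difference rests on the constant.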
